A study of Mus musculus with 12 samples.

Results

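The unfolded protein response and the integrated stress response were followed through 10 genes, picked by name as known members of these pathways, with no threshold on a measured value: Atf4, Ddit3, Trib3, Asns, Chac1, Hspa5, Xbp1, Herpud1, Dnajb9 and Ern1. They are 10 of the 24187 genes in the count table, and 10 of 10 passed the filter on low counts, which 22581 genes passed. Bulk RNA sequencing was run on whole livers, 1 from each of 12 mice, in a study of whether cryopreserved human alternatively activated macrophages (hAAMs) alter acetaminophen (APAP, paracetamol) injury. Mice of the study were C57BL/6 animals 10 to 12 weeks old, and its methods name the substrain both as C57BL/6 J and as C57BL6/JOlaHsd.

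The 3 control mice are labelled as having no injury and no treatment. The 5 APAP vehicle mice received 350 mg/kg APAP, as the labels state, and PBS vehicle. The study also describes a severe model with a higher dose and presents its sequencing beside that model, so the dose given here rests on the labels alone. The 4 APAP hAAM mice received the same dose of APAP and hAAM cells. In the study's protocol APAP was injected intraperitoneally after a fast, and cells or vehicle went into a tail vein 16 h later. The protocol also names a saline injection in place of APAP after the same fast, but no source used here says whether the 3 sequenced control mice, labelled untreated, received it, so fasting, injection and injury cannot be told apart in a comparison with control. The hour of liver collection is given differently in different places of the study and is not used here. Each liver is labelled as 1 mouse, and the p-values measure the spread between livers as labelled, which for the pair of near-identical libraries described later may not be a spread between 2 mice.

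Cells meet misfolded protein in the endoplasmic reticulum (ER) with 3 membrane sensors, of which Ern1 encodes one, IRE1α. IRE1α splices Xbp1 mRNA into the template of a transcription factor that raises ER chaperones and degradation factors, while the sensor PERK phosphorylates the translation factor eIF2. Phosphorylated eIF2, which other kinases also produce when amino acids or heme are short, lowers general protein synthesis and favors translation of Atf4, a step that mRNA counts do not show. Hepatocytes secrete most plasma proteins and depend on this machinery, and APAP is converted to a protein-binding metabolite mainly in the hepatocytes around the central vein.

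Promoters were read to see which members carry selected elements of these pathways, each searched in 1 form. RefSeq windows on GRCm38.p6 run from 250 bases before to 50 bases after a gene's start, and 10 of 10 members had one. The ER stress response element, searched on both strands as CCAAT, any 9 bases and CCACG, was found in the window of 1 of the 10 members, Hspa5, and in 0.119% of all 32851 windows. The element TGACGTGG was found in 0 of the 10 and in 0.676% of all windows. The C/EBP-ATF element, searched as TGATGNAA on both strands, was found in 4 of the 10 members, Trib3, Asns, Chac1 and Herpud1, and in 3.97% of all windows. A match describes the letters of a window and is not a measured binding site. Other forms of these elements were not searched, so a window without a match may hold them.

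The 5 windows with a match are shown 5′ to 3′ on the gene's own strand, the matched letters in capitals: the outer parts of the ER stress response element in Hspa5, the C/EBP-ATF element in the others. Hspa5 (chr2:34771840-34772089, plus strand), Asns (chr6:7693210-7693459, minus strand), Chac1 (chr2:119350992-119351241, plus strand) and Herpud1 (chr8:94386179-94386428, plus strand) are shown over the 250 bases before the start. Trib3 (chr2:152344028-152344057, minus strand) is shown over 30 bases that lie just after its start. Starts here are those of RefSeq. The gene coordinates given below are those of GENCODE, whose starts can differ, so bases before the RefSeq start can lie after the GENCODE start or the reverse.
Hspa5: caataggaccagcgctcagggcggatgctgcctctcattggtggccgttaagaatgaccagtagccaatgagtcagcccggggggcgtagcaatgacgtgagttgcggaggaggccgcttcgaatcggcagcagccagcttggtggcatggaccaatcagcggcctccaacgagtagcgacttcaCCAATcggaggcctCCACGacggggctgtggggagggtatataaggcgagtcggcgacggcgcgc
Trib3: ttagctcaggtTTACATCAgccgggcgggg
Asns: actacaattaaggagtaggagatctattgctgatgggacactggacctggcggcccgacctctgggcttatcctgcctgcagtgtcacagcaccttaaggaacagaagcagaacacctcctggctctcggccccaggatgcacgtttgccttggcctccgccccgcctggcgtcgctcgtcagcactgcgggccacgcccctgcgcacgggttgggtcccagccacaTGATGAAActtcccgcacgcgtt
Chac1: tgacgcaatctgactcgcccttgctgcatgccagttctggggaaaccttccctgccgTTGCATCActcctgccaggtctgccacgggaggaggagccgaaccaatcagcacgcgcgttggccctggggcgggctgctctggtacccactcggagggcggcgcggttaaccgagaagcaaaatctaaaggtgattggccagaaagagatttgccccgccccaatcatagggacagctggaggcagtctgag
Herpud1: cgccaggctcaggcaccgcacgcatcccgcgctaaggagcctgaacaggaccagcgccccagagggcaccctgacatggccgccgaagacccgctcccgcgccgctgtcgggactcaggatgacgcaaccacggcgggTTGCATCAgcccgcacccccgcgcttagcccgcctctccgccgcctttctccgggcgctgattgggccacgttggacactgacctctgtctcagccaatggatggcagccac

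Against control, 5 of the 10 members fell in APAP vehicle livers and 1 rose. Xbp1, Ern1, Atf4, Hspa5 and Ddit3 fell, and Trib3 rose (edgeR's quasi-likelihood test, adjusted p under 0.05 over all genes tested). Relative to other genes, APAP vehicle livers had less mRNA of the sensor Ern1 and of both transcription factors Atf4 and Xbp1 than uninjured livers. The calls of the ER chaperone Hspa5 and of Ddit3 were less stable, holding in 3 and 5 of the 12 fits that left out 1 liver, and the number of members that fell was 3 to 5 over those fits, 3 with the replicate number as a block and 2 by library size. In APAP hAAM livers 4 members differed from control: Xbp1, Ern1 and Atf4 fell and Trib3 rose. No member differed between the APAP groups after adjustment.

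These counts stand on a broad change in the liver. Of all genes, 29.8% were called in APAP vehicle livers against control, 15.0% higher and 14.8% lower, and 20.7% in APAP hAAM livers, 10.7% higher and 9.96% lower. Ranges of the 3 control and 5 APAP vehicle livers did not overlap for 6 of 10 members and for 34.8% of all genes. With hAAM against control they did not overlap for 4 of 10 members and 28.5% of all genes. The median log2 fold change of the 10 members was −0.58 with vehicle and −0.41 with hAAM, against 0.01 and 0.02 over all genes tested. The comparisons with control share the same 3 control livers. The 10 members were chosen with earlier results of these data known, so their difference from all genes is a description.

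**Figure D1:**
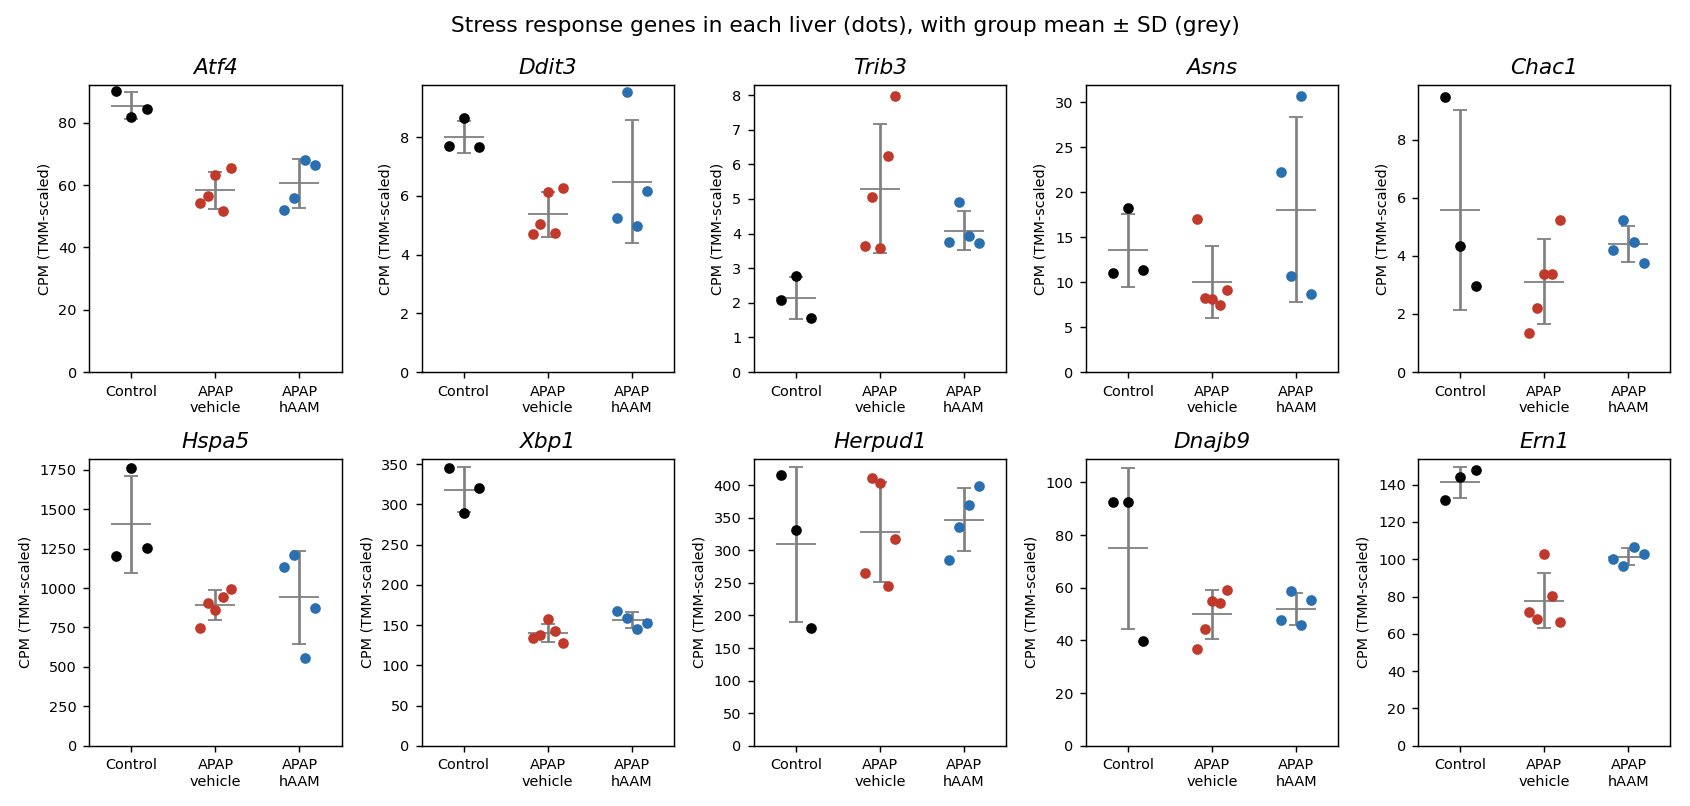
Read counts per 1000000 (CPM, scaled by edgeR's TMM factors, linear axis) of each of the 10 genes in each of the 12 livers, 1 dot per liver, by group, with the group mean and SD in grey. The APAP livers lie below every control liver for Xbp1, Ern1 and Atf4, and above every control liver for Trib3.

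Total counts were 47391650 to 74056505 per liver. Levels are given as counts per 1000000 counts of the liver (CPM) on a scale set with the TMM method. Its factors lay between 0.8316 and 0.8586 for the controls and between 0.9326 and 1.14 for APAP livers, so that the scaling itself differs between injured and uninjured livers. With library size alone as the scale, the median of all genes moved to 0.36 with vehicle and 0.32 with hAAM, and calls over all genes became 8637 higher and 1110 lower with vehicle, and 6559 higher and 781 lower with hAAM. On that scale 3 members stayed called with vehicle (1 higher, 2 lower: Trib3, Xbp1 and Ern1) and 2 with hAAM (Trib3 and Xbp1). The libraries of APAP vehicle replicate 3 and APAP hAAM replicate 4 differed from each other by 1.197 times counting noise in the median, while the next closest pair, vehicle replicates 1 and 2, differed by 2.377 times. These 2 libraries carry different treatment labels, and whether they come from 2 mice, or carry the right labels, cannot be told from the counts. They were kept, so n, the spread and the comparison of hAAM with vehicle hold only if the labels do. Without them 4 members were called with vehicle, where 30% of all genes were, and 4 with hAAM, where 19.6% of all genes were.

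Ern1 (ENSMUSG00000020715, chr11:106394650-106487852, minus strand, protein coding) encodes the sensor that splices Xbp1. Control livers had 132, 144 and 148 CPM. APAP vehicle livers had 71.7, 68.0, 103, 80.4 and 66.5 CPM. APAP hAAM livers had 100.1, 96.2, 107 and 103 CPM. Every APAP liver lay below every control liver, and among vehicle livers only replicate 3 reached the hAAM range. Ern1 was 0.551 times the control level with vehicle (log2 fold change −0.86, SE 0.12, edgeR adjusted p = 0.000749). With hAAM the log2 fold change was −0.48 (SE 0.13, edgeR adjusted p = 0.0253). With library size as the scale it was −0.52 with vehicle (adjusted p = 0.00507) and −0.18 with hAAM (adjusted p = 0.287, no longer called). The vehicle call held in 12 of 12 fits that left out 1 liver, and the hAAM call in 8 of 12 (adjusted p 0.00431 to 0.0875), being lost without control replicates 2 or 3 or hAAM replicates 1 or 2.

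Xbp1 (ENSMUSG00000020484, chr11:5520659-5525893, plus strand, protein coding) encodes the transcription factor made from the mRNA that IRE1α splices. Control livers had 345, 289 and 320.4 CPM. APAP vehicle livers had 133, 138, 157, 143 and 128 CPM, and hAAM livers had 168, 159, 146 and 153 CPM. Both APAP groups sat below all controls with a narrow spread. Xbp1 was 0.439 times the control level with vehicle (log2 fold change −1.19, SE 0.09, edgeR adjusted p = 1.89e-05), and its p was the 14th smallest of all genes tested. With hAAM the log2 fold change was −1.03 (SE 0.09, edgeR adjusted p = 0.000107), the 24th smallest p. Gene counts sum the spliced and unspliced forms, so the level says nothing of how much Xbp1 was spliced.

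Atf4 (ENSMUSG00000042406, chr15:80255184-80257541, plus strand, protein coding) encodes the transcription factor at the center of the integrated stress response. Its level was 90.2, 81.9 and 84.3 CPM in control livers, 54.1, 56.6, 63.3, 51.8 and 65.6 CPM in vehicle livers, and 52.1, 55.7, 68.2 and 66.4 CPM in hAAM livers. No APAP liver reached the lowest control liver. Its log2 fold change was −0.55 (SE 0.11) in vehicle livers (edgeR adjusted p = 0.00291) and −0.50 (SE 0.11) in hAAM livers (edgeR adjusted p = 0.0104). On the library-size scale neither passed (−0.21, adjusted p = 0.0771, and −0.20, adjusted p = 0.113).

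Ddit3 (ENSMUSG00000025408, chr10:127290774-127296288, plus strand, protein coding) encodes CHOP, a transcription factor of prolonged ER stress that Atf4 raises. Its 1713 exon bases share 68 with Mars and 13 with Gm4189 on the other strand, and 105 with another entry of the annotation also named Ddit3, so its counts are uncertain where the counting could split them. Control livers had 7.70, 8.64 and 7.67 CPM and vehicle livers had 4.70, 5.05, 6.12, 4.75 and 6.27 CPM. The hAAM livers had 5.24, 9.52, 4.98 and 6.16 CPM, so that hAAM replicate 2 was above every control liver and the other 3 were below. Ddit3 had a log2 fold change of −0.57 ± 0.19 (SE) in vehicle livers (edgeR adjusted p = 0.0405), a call that held in 5 of the 12 fits that left out 1 liver (adjusted p 0.00737 to 0.118). It was lost without any 1 of the controls, vehicle replicates 1, 2 or 4 or hAAM replicate 4, and also without the near-identical libraries (adjusted p = 0.052). By library size the value was −0.23 (adjusted p = 0.421), and with the replicate number as a block −0.60 (adjusted p = 0.0685), and neither passed. On the TMM scale without the block, the value with hAAM was −0.31 (SE 0.20, edgeR adjusted p = 0.307), and without hAAM replicate 2 it was −0.55 (adjusted p = 0.0311).

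Trib3 (ENSMUSG00000032715, chr2:152337422-152344032, minus strand, protein coding) encodes a pseudokinase that ATF4 and CHOP raise and that restrains them. It was the only member that rose. Control livers had 2.08, 2.78 and 1.56 CPM. Vehicle livers had 3.65, 5.05, 3.58, 6.24 and 7.97 CPM, and hAAM livers had 3.77, 4.93, 3.93 and 3.73 CPM. All 9 APAP livers were above the highest control liver. The rise over control was 2.47-fold with vehicle (log2 fold change 1.30, SE 0.28, edgeR adjusted p = 0.0053) and 1.90-fold with hAAM (log2 fold change 0.93, SE 0.29, edgeR adjusted p = 0.039). The hAAM call held in 7 of 12 fits that left out 1 liver (adjusted p 0.0229 to 0.141), and was lost without control replicates 1 or 3, vehicle replicate 2 or hAAM replicates 1 or 2. Without control replicate 3, the log2 fold change with hAAM was 0.75.

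Asns (ENSMUSG00000029752, chr6:7675169-7693254, minus strand, protein coding) encodes asparagine synthetase, whose promoter element above is a textbook site of ATF4. Control livers had 11, 18.2 and 11.4 CPM. Vehicle livers had 17.1, 8.23, 8.07, 7.44 and 9.13 CPM, replicate 1 standing above the other 4. The hAAM livers had 22.3, 10.7, 30.7 and 8.64 CPM, replicates 1 and 3 standing above every control liver. Asns had a log2 fold change of −0.44 ± 0.40 (SE) in vehicle livers (edgeR adjusted p = 0.43) and 0.42 with hAAM (SE 0.42, edgeR adjusted p = 0.515), and neither passed. Both values moved widely when 1 liver was left out, from −0.72 without vehicle replicate 1 to −0.17 without control replicate 2 with vehicle, and from 0.03 without hAAM replicate 3 to 0.69 without control replicate 2 with hAAM.

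Chac1 (ENSMUSG00000027313, chr2:119351229-119354381, plus strand, protein coding) encodes an enzyme that degrades glutathione and is raised by ATF4. Its control livers had 9.47, 4.34 and 2.94 CPM, its vehicle livers 1.342, 2.19, 3.39, 3.39 and 5.22 CPM, and its hAAM livers 4.20, 5.24, 4.47 and 3.75 CPM. Control replicate 1 alone lay above every APAP liver, and the coefficient of variation among controls was 61.5%, the highest of the 10 members. Chac1 had a log2 fold change of −0.84 ± 0.40 (SE) in vehicle livers (edgeR adjusted p = 0.131) and −0.34 with hAAM (SE 0.42, edgeR adjusted p = 0.606), and without control replicate 1 these became −0.23 and 0.28.

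Hspa5 (ENSMUSG00000026864, chr2:34771970-34777547, plus strand, protein coding) encodes BiP, the abundant chaperone of the ER lumen that binds unfolded protein and holds the sensors inactive. Control livers had 1201, 1760 and 1252 CPM, vehicle livers 747, 907, 863, 946 and 994 CPM, and hAAM livers 1132, 1210, 556 and 872 CPM. Vehicle livers all lay below control. In the hAAM group replicate 2 reached into the control range and replicate 3 was the lowest of the 12 livers. Hspa5 had a log2 fold change of −0.66 ± 0.22 (SE) in vehicle livers (edgeR adjusted p = 0.0422), a call that held in 3 of the 12 fits that left out 1 liver (adjusted p 0.00981 to 0.185). It was lost without any 1 of the controls or vehicle livers or hAAM replicate 4, and also without the near-identical libraries (adjusted p = 0.0811). By library size the value was −0.31 (adjusted p = 0.339), and with the replicate number as a block −0.68 (adjusted p = 0.0701), and neither passed. On the TMM scale without the block, the value with hAAM was −0.58 (SE 0.23, edgeR adjusted p = 0.101).

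Dnajb9 (ENSMUSG00000014905, chr12:44205559-44210326, minus strand, protein coding) encodes an ER co-chaperone of BiP that XBP1 raises. Control livers had 92.6, 92.7 and 39.6 CPM, vehicle livers 36.6, 44.3, 54.9, 54.4 and 59.3 CPM, and hAAM livers 47.8, 58.7, 46.0 and 55.4 CPM. Control replicate 3 lay among the APAP livers while the other controls lay above all of them. Dnajb9 had a log2 fold change of −0.59 ± 0.24 (SE) in vehicle livers (edgeR adjusted p = 0.0821) and −0.53 with hAAM (SE 0.25, edgeR adjusted p = 0.156). Without control replicate 3 both passed, at −0.89 (adjusted p = 0.00545) and −0.83 (adjusted p = 0.0154).

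Herpud1 (ENSMUSG00000031770, chr8:94386438-94395377, plus strand, protein coding) encodes a membrane protein of ER-associated degradation. Control livers had 416, 331 and 181 CPM, vehicle livers 265, 411, 404, 245 and 317 CPM, and hAAM livers 286, 335, 369 and 399 CPM. The 3 groups overlapped over most of their ranges. Herpud1 had a log2 fold change of 0.09 with vehicle (95% interval −0.46 to 0.63, edgeR adjusted p = 0.824) and 0.17 with hAAM (95% interval −0.40 to 0.73, edgeR adjusted p = 0.689). Both signs turned without control replicate 3, to −0.19 and −0.10.

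The hAAM treatment itself was tested against vehicle in injured livers. No member was called (0 of 10, with 0% of all genes called by edgeR), 2 of 10, Ern1 and Asns, had an unadjusted p under 0.05, as did 5.02% of all genes, and DESeq2 also called 0. Ranges overlapped for all 10 members, while they did not overlap for 1.40% of all genes. Ern1 was 1.303 times as high with hAAM as with vehicle (log2 difference 0.38, 95% interval 0.13 to 0.63, edgeR adjusted p = 0.966), and vehicle replicate 3 was the only vehicle liver above the lowest hAAM liver. Vehicle replicate 3 is one of the near-identical libraries. Without both of them the difference in Ern1 was 0.49 (edgeR adjusted p = 0.31). Asns had the largest difference of the 10, 0.86 (95% interval 0.06 to 1.65, edgeR adjusted p = 0.966). Without hAAM replicate 3 it was 0.47 (edgeR adjusted p = 1), and without the near-identical libraries 1.02 (edgeR adjusted p = 0.674).

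For the other 8 members the difference between treatments lay between −0.38 and 0.50 on the log2 scale, and between −0.45 and 0.60 without the near-identical libraries. The intervals still allow sizeable effects. For Trib3 the difference was −0.38 (95% interval −0.90 to 0.15), for Chac1 0.50 (95% interval −0.31 to 1.32) and for Ddit3 0.27 (95% interval −0.12 to 0.66). Over fits that left out 1 liver, these ran from −0.49 to −0.18, from 0.32 to 0.78 and from 0.02 to 0.38. The narrowest interval was that of Xbp1, whose difference was 0.16 (95% interval −0.02 to 0.34).

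**Figure D2:**
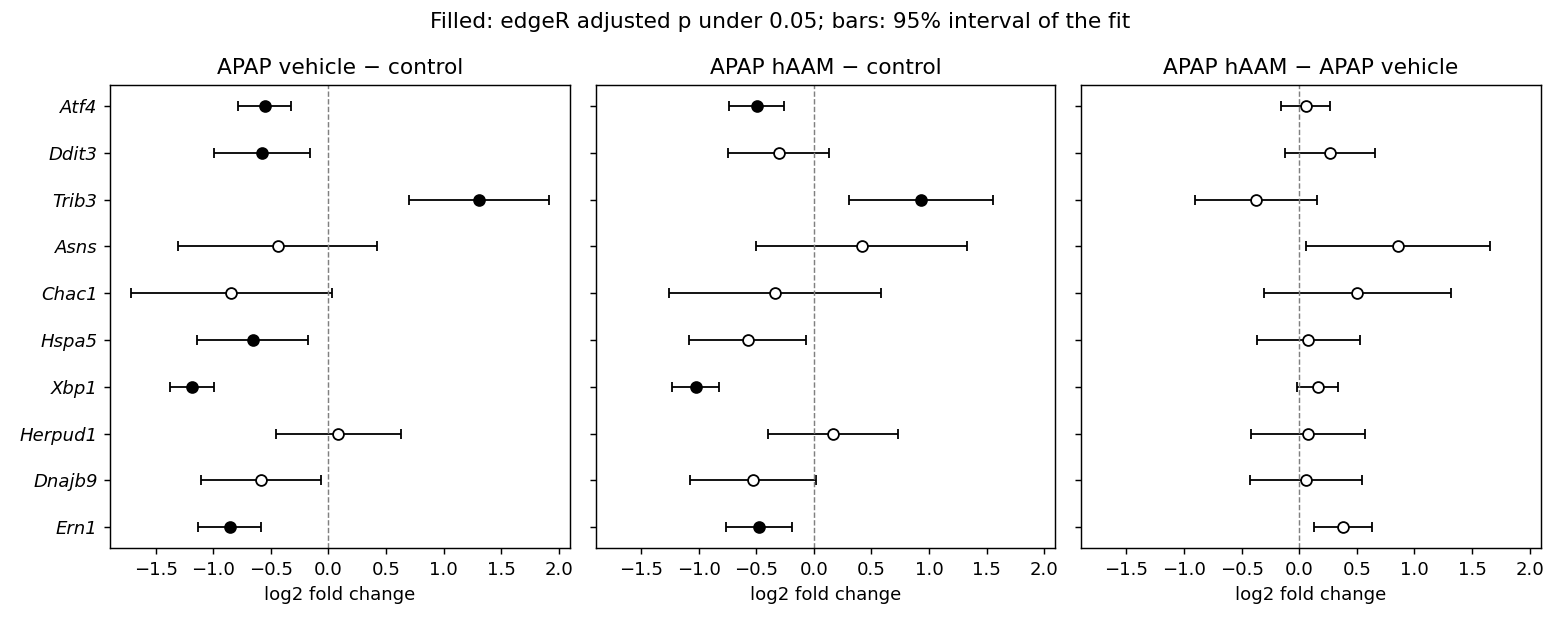
Log2 fold change of each of the 10 genes (points) with its 95% interval (lines; filled points are called by edgeR) in the comparisons of APAP vehicle with control, APAP hAAM with control and APAP hAAM with APAP vehicle. Xbp1 has the largest fall against control, at −1.19 and −1.03, Trib3 alone is called higher, and the intervals between treatments include 0 except for Asns and Ern1, which do not pass after adjustment.

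Levels of different genes were set side by side per kilobase of exon. In control livers Hspa5 was highest, at 332 ± 73.1 CPM per kilobase (SD, n = 3), followed by Herpud1 at 133 ± 50.9, Xbp1 at 97.9 ± 8.52, Atf4 at 36.3 ± 1.80, Dnajb9 at 29.4 ± 12.01 and Ern1 at 17.3 ± 1.03. Asns, Ddit3, Chac1 and Trib3 followed at 4.95 ± 1.49, 4.67 ± 0.321, 3.41 ± 2.10 and 1.01 ± 0.289 CPM per kilobase. The chaperone Hspa5 was thus the most abundant of these mRNAs, and Trib3 the least. Neighbors in this order whose control ranges did not overlap were Hspa5 and Herpud1, Xbp1 and Atf4, Ern1 and Asns, and Chac1 and Trib3. In APAP vehicle livers the order was the same except that Trib3, at 2.49 ± 0.873 CPM per kilobase (SD, n = 5), passed Chac1 at 1.90 ± 0.895, with ranges that overlap.

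**Figure D3:**
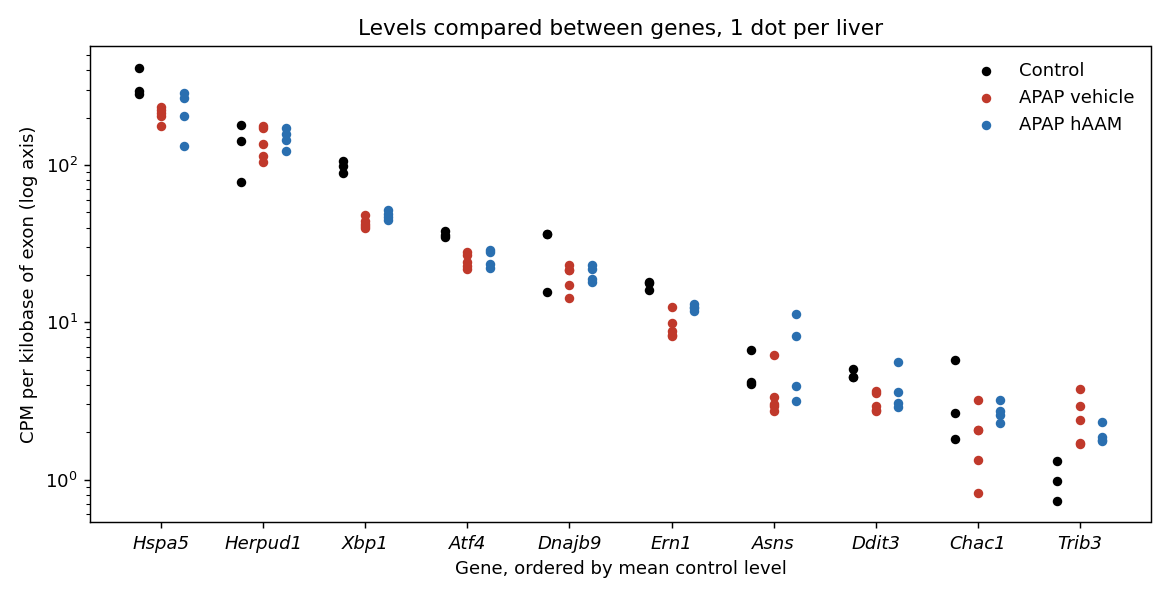
CPM per kilobase of exon (log axis) of the 10 genes in each of the 12 livers, 1 dot per liver, ordered by the mean of the control livers. Hspa5 is highest and Trib3 lowest in control livers, and the controls of Xbp1 stand apart from its APAP livers.

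Livers did not deviate alike in all members. Vehicle replicate 5 was the highest of its group in 6 of the 10 members but the lowest for Xbp1 and Ern1. That liver also had 90.4 CPM of B cell and plasma cell markers in sum, against 4.924 to 6.428 CPM in the other vehicle livers, and the part of such cells in its values was not tested. Replicate 3 of the hAAM group had the highest Asns, Atf4 and Ern1 of its group and the lowest Hspa5, Ddit3, Xbp1 and Dnajb9. Its summed pericentral hepatocyte markers were 2848 CPM, against 481.8 to 1489 CPM in the other hAAM livers.

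Some cell type markers moved with the injury. Over all genes 15.0% were called higher and 14.8% lower with vehicle, and 10.7% and 9.96% with hAAM. The summed markers of hepatocytes ranged over 64410 to 94330 CPM in control, 67610 to 99380 CPM in vehicle and 70880 to 102400 CPM in hAAM livers, with albumin among them, so the tissue label held. Of the 7 markers summed, 0 were called higher and 2 lower with vehicle, and 0 either way with hAAM. Pericentral hepatocyte markers ranged over 3880 to 6256 CPM in control, 389.8 to 1499 CPM in vehicle and 481.8 to 2848 CPM in hAAM livers, and 5 of 6 fell with vehicle and 3 of 6 with hAAM. Summed macrophage markers ranged over 272.7 to 340.6, 329 to 560.1 and 337.5 to 552.6 CPM, with 3 of 8 called higher in each comparison with control. Summed stellate cell markers ranged over 281.3 to 369.3, 382.8 to 598.2 and 376.7 to 721.2 CPM, with 3 of 6 called higher in each comparison with control. Endothelial markers ranged over 260 to 287.3, 307 to 415.4 and 286.9 to 415.6 CPM in sum, with 3 of 5 called higher with vehicle and 2 of 5 with hAAM. Summed cholangiocyte markers ranged over 40.32 to 65.48, 64.1 to 300.7 and 63.79 to 230.9 CPM, with 0 of 5 called. Spp1 and Sox9 made up most of that sum, and Krt19, Krt7 and Epcam were at most 3.02 CPM in any liver. Spp1 alone ranged over 18.06 to 34.12, 31.4 to 252.9 and 31.21 to 194.6 CPM. Of the periportal hepatocyte markers 1 of 6 was called higher and 1 lower with vehicle, and 1 higher with hAAM, counts near the shares of all genes. Among the markers tested, 0 of 5 of neutrophils, 0 of 7 of B and plasma cells and 0 of 4 of T and NK cells were called against control. Not all 8 B and plasma cell and 5 T and NK cell markers passed the low-count filter. No marker was at 0 in any liver, and the part of these cells in the members' changes was not tested. In bulk tissue, fewer cells of a type and less RNA per cell cannot be told apart.

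The wider pathway was described with 8 lists of 102 further genes. With vehicle 16 of the 102 rose and 39 fell, and with hAAM 11 rose and 28 fell (edgeR), with medians of −0.18 and −0.20 against 0.01 and 0.02 over all genes. Over all genes 15.0% rose and 14.8% fell with vehicle and 10.7% rose and 9.96% fell with hAAM. The share of rises in the lists was thus near that of all genes and the share of falls was above it. The lists were chosen with earlier results of these data known, so this comparison describes them and is not independent support. The split depends on the scale: with library size alone, 32 rose and 10 fell with vehicle, and 22 rose and 6 fell with hAAM, on a scale where 8637 of all 22581 genes rose and 1110 fell with vehicle, so the counts by library size given for single lists are to be read against those. With the replicate number as a block, 35 of the 102 were called with vehicle, 10 higher and 25 lower, while 18.8% of all genes were. Without the near-identical libraries 50 were called with vehicle, 17 higher and 33 lower, and 33 with hAAM, 10 higher and 23 lower. By count, the most falls with vehicle stood in the lists of ER chaperones (8 of 17) and of ER-associated degradation (8 of 14). The most rises stood in amino acid synthesis and transport, with 8 of 14. As a share of its list the mitochondrial unfolded protein response fell most, at 5 of 7.

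Among 17 ER chaperones and folding enzymes, 1 rose and 8 fell with vehicle, and 1 rose and 4 fell with hAAM, where DESeq2 called 1 higher and 9 lower. Ero1lb, an ER oxidase, fell from 142 ± 8.60 CPM (SD, n = 3) to 70.3 ± 7.97 CPM (SD, n = 5) with vehicle (log2 fold change −1.01, edgeR adjusted p = 8e-05) and to 70.7 ± 5.70 CPM (SD, n = 4) with hAAM (−1.002, adjusted p = 0.000207). Hyou1, a large ER chaperone that works with BiP, fell by 1.05 with vehicle and by 1.06 with hAAM on the log2 scale (edgeR adjusted p = 0.00267 and 0.00566). Dnajc10, an ER disulfide reductase, rose by 0.71 and 0.60 (edgeR adjusted p = 0.0136 and 0.0452). On the library-size scale the vehicle split of this list was 2 higher and 3 lower.

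Of the 14 genes of ER-associated degradation, 0 rose and 8 fell in each comparison with control. Syvn1, the ubiquitin ligase HRD1, fell from 240.0 ± 73.3 CPM (SD, n = 3) to 90.6 ± 17.5 CPM (SD, n = 5) with vehicle (log2 fold change −1.41, edgeR adjusted p = 0.000721) and to 97.2 ± 16.3 CPM (SD, n = 4) with hAAM (−1.30, adjusted p = 0.00268). Edem1, a lectin that hands misfolded glycoproteins to degradation, fell by 0.86 and 0.73 on the log2 scale (edgeR adjusted p = 0.000933 and 0.00508). By library size the vehicle split of this list was 3 higher and 2 lower.

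Amino acid synthesis and transport went the other way: of 14 genes 8 rose and 1 fell with vehicle, and 7 rose and 0 fell with hAAM. Psat1, an enzyme of serine synthesis, rose from 1.27 ± 0.558 CPM (SD, n = 3) to 12.1 ± 4.02 CPM (SD, n = 5) with vehicle (log2 fold change 3.24, edgeR adjusted p = 0.000402) and to 8.78 ± 3.54 CPM (SD, n = 4) with hAAM (2.78, adjusted p = 0.00183). Gpt2, an alanine transaminase of mitochondria, rose by 0.78 and 0.51 (edgeR adjusted p = 0.002 and 0.0262). Shmt2, a mitochondrial serine and glycine enzyme, fell with vehicle by 0.46 (edgeR adjusted p = 0.0181), and its value with hAAM was −0.25 (adjusted p = 0.201). By library size 9 of this list rose and 0 fell with vehicle.

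Partner factors and effectors of ATF4 split: of 13 genes 4 rose and 3 fell with vehicle, and 3 rose and 2 fell with hAAM. Sesn2, a stress-induced inhibitor of mTORC1, rose by 0.81 and 0.64 (edgeR adjusted p = 0.00177 and 0.0103), and Ddit4, another inhibitor of mTORC1, rose by 0.58 and 1.12 (edgeR adjusted p = 0.0422 and 0.0046). Between treatments Ddit4 ranged over 12.2 to 14.0 CPM with vehicle and 14.3 to 23.5 CPM with hAAM (log2 difference 0.54). It was the 1 gene of the 102 whose ranges did not overlap there, a share below the 1.40% of all genes. Cebpg, a C/EBP partner of ATF4, fell by 0.66 and 0.63 (edgeR adjusted p = 0.000704 and 0.00219), and Vldlr, a lipoprotein receptor, fell by 1.23 and 0.98 (edgeR adjusted p = 0.00374 and 0.0212).

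The list of cytosolic aminoacyl-tRNA synthetases held 12 of these enzymes and Xpot, a tRNA exporter that was called in neither comparison with control. Of its 13 genes 2 rose and 6 fell with vehicle, and 0 rose and 5 fell with hAAM. Aars, the alanine enzyme, fell from 296 ± 14.3 CPM (SD, n = 3) to 156 ± 8.35 CPM (SD, n = 5) with vehicle (log2 fold change −0.92, edgeR adjusted p = 4.43e-05), and Yars, the tyrosine enzyme, fell by 0.72 (edgeR adjusted p = 0.000157). Lars and Gars, the leucine and glycine enzymes, rose with vehicle by 0.38 and 0.35 (edgeR adjusted p = 0.0128 and 0.0412). By library size 4 rose and 3 fell with vehicle.

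In the list of sensors and eIF2 control, 1 of 11 genes rose and 4 fell with vehicle, and 0 rose and 3 fell with hAAM. Ppp1r15b, which directs a phosphatase to eIF2, fell by 0.53 and 0.50 (edgeR adjusted p = 0.000696 and 0.00215). Mbtps1, the protease that cleaves ATF6 first, fell by 0.31 and 0.25 (edgeR adjusted p = 0.00637 and 0.029), while Mbtps2, the protease that cleaves it next, rose with vehicle by 0.29 (edgeR adjusted p = 0.0451). By library size 3 of this list rose and 0 fell with vehicle.

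Of the 13 genes of translocation and the secretory pathway, 4 fell with vehicle and 2 with hAAM, among them Serp1, a partner of the translocon (−0.44 and −0.51, edgeR adjusted p = 0.00567 and 0.00568), and Sec24d, a coat protein of vesicles that leave the ER (−0.29 and −0.36, edgeR adjusted p = 0.0349 and 0.0225). By library size 6 of this list rose with vehicle and 0 fell. Of 7 genes of the mitochondrial unfolded protein response, 5 fell with vehicle and 4 with hAAM, among them the chaperonins Hspe1 (−0.56 and −0.45, edgeR adjusted p = 0.00246 and 0.0143) and Hspd1 (−0.58 and −0.40, edgeR adjusted p = 0.00266 and 0.0294). By library size 0 of these 7 were called.

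Between hAAM and vehicle 0 of the 102 genes were called by edgeR and 0 by DESeq2, and 3 had an unadjusted p under 0.05 (Tars, Ddit4 and Gpt2), a share below the 5.02% of all genes. The median difference over the 102 was −0.01.

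**Figure D4:**
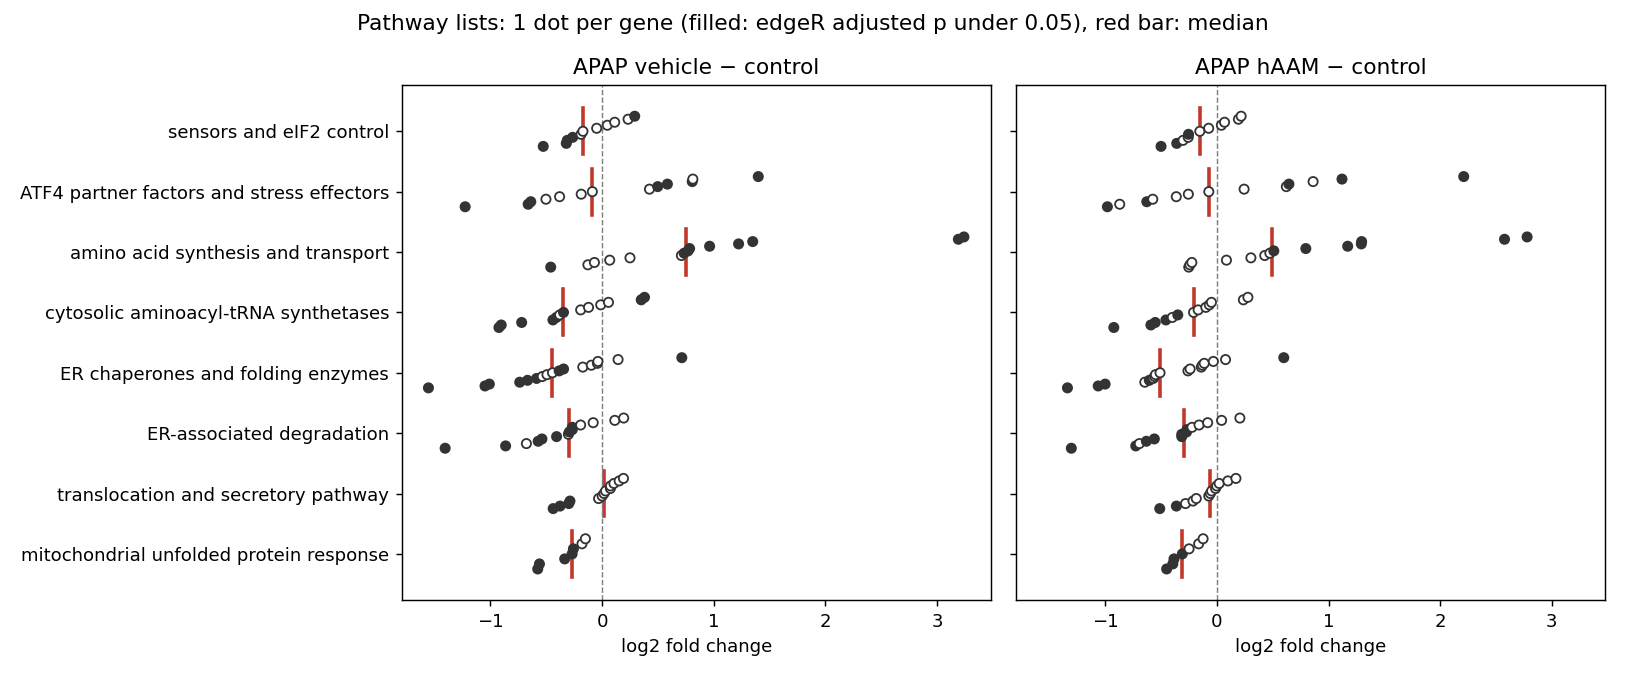
Log2 fold change against control of the genes of the 8 pathway lists, by list, for APAP vehicle and APAP hAAM livers, 1 dot per gene, filled where edgeR called it, with a red bar at the list's median. On the TMM scale most genes of ER-associated degradation and of the ER chaperones lie below 0, and amino acid synthesis and transport reaches highest, up to Psat1 at 3.24 and 2.78, while by library size the vehicle calls of ER-associated degradation were 3 higher and 2 lower.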

How the data were processed

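RNA from frozen mouse liver was depleted of ribosomal RNA and made into directional libraries. The authors trimmed reads with Cutadapt 4.6, mapped them to GRCm38 by STAR 2.7.1a and used summarizeOverlaps for gene counting, and the deposited values are these raw counts, not normalized. The counting mode and strand setting are not given in the sources used here. The submitters' processing notes also list MultiQC 1.25 and DESeq2 1.38.3. Symbols were taken from GENCODE M21 on the same build, for 24128 of 24187 IDs.

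Counts were filtered with edgeR's filterByExpr by group and scaled by TMM, and 1 quasi-likelihood model was fitted to all 12 livers (R 4.3.3, edgeR 4.0.16, limma 3.58.1), with 3 two-sided comparisons and Benjamini-Hochberg adjustment over all 22581 genes at 0.05. The interval of a fold change is 95%, from its standard error and the fit's degrees of freedom. CPM values carry the TMM scale, and 1 count was 0.01478 to 0.01976 CPM. The biological coefficient of variation was 0.214. Alternatives were DESeq2 1.42.0, RLE scaling, library size alone, no filter, at least 10 counts in every liver, only the 2 groups compared, robust estimation, a replicate block, each liver left out, and the 2 near-identical libraries left out. For the pathway lists, the block and the removal of those libraries were added after seeing the data. On simulated counts for the comparison of vehicle with control, the model called 60% of the 2-fold and 95% of the 4-fold changes. The changed genes were drawn from those above a minimum mean count. Far fewer genes were changed there than were called in the livers, so these shares are not the power in the data. The comparisons with hAAM were not simulated.

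The 10 members and the lists were chosen with earlier results of these data known. Of each pathway list the text names the 2 called genes with the smallest p in each direction against control. Ddit4, Tars and Gpt2 are named between the treatments because of their values.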

Additional observations from a re-analysis of the deposited data

Results flagged for a closer look

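Asns in APAP vehicle replicate 1 stood apart from the rest of its group, at a log2 CPM of 4.09 against 2.90 to 3.20 in the other 4 livers. The gap was 0.753 of the group's range, above the critical value of 0.71 for 5 samples. It was the 1 case among 20 groups of members tested, and chance gives about 1 in 20. Without that liver Asns had a log2 difference between hAAM and vehicle of 1.14 (edgeR adjusted p = 0.999).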

How the results depend on the processing

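With library size alone 3 members were called with vehicle and 2 with hAAM against control, and Ddit3 with hAAM turned to 0.0174. Leaving out 1 liver at a time gave 4 to 6 members with vehicle and 2 to 4 with hAAM, the 2 without hAAM replicate 1, and 0 between treatments, while 20.1% to 32% and 10.5% to 24.2% of all genes were called against control. Over these fits some small values changed sign: Herpud1 from −0.19 to 0.36 with vehicle (0 without vehicle replicate 3) and −0.10 to 0.44 with hAAM, Chac1 from −0.64 to 0.28 with hAAM, and between treatments Atf4 from −0.0044 to 0.12, Hspa5 from −0.062 to 0.27, Herpud1 from −0.0082 to 0.17 and Dnajb9 from −0.0333 to 0.13. Xbp1 and Atf4 were called in 12 of 12 such fits against control with either treatment. Replicate numbers did not pair the livers (correlations of same-numbered livers −0.458 to 0.385), and with a replicate block 4 members were called with vehicle, 4 with hAAM and 0 between treatments, and 35 and 26 of the 102 pathway genes, while 18.8% and 13.1% of all genes were called against control. DESeq2 called 10 ER chaperones with hAAM where edgeR called 5, and 25.8% of all genes where edgeR called 20.7%. RLE scaling, no filter, the stricter filter, 2-group fits and robust estimation each gave 6 and 4 members, while 28% to 32.6% and 12.7% to 23% of all genes were called. The cause of these shifts was not tested. With 3 to 5 livers a group, an adjusted p over the threshold does not show equality. In the simulation, which covered vehicle against control alone, 60% of 2-fold changes were called.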
